A study of Mus musculus with 8 samples.

Results

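The genes described here are the 3 Id genes Id1, Id2 and Id3 together with 7 genes of the TGF-beta and BMP pathway, namely Smad6, Smad7, Skil, Tgif1, Tgfb1, Tgfbr1 and Tgfbr2. They were chosen by symbol, with earlier results of these data known, and all 10 were found among the 23143 genes of the table. RNA came from RAW264.7 cells, a mouse macrophage line transformed by a leukaemia virus. 1 culture was left unstimulated (0 min), and 7 received 100 ng/ml LPS from E. coli, for 15, 30, 45, 60, 75, 90 or 120 min before harvest. RNA sequencing gave 1 library for each of these times, and differences between them thus have no replicate to check them. LPS is bacterial lipopolysaccharide, which macrophages sense through TLR4, and the time course asks how mRNA levels move early after activation. The labels give the RNA as the cytoplasmic fraction, whereas the methods of the study speak of total RNA.

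TGF-beta and BMPs are secreted ligands that bind pairs of type I and type II receptor kinases, which phosphorylate receptor SMADs that enter the nucleus with SMAD4. Id proteins are helix-loop-helix proteins without a DNA-binding region, which hold E proteins and related factors away from DNA, and their genes are classical targets of BMP signaling. SMAD6 and SMAD7 are the inhibitory SMADs, with SMAD6 acting mainly on BMP receptors and SMAD7 on both branches, while SKIL (SnoN) and TGIF1 are nuclear corepressors of SMAD complexes. TGF-beta restrains macrophage activation, and in many cell types the brakes of the pathway are themselves induced by it.

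Sequences around an annotated transcript start were given for 7 of the 10 genes, in 12 windows of 300 bases (RefSeq, GRCm38.p6). They were searched on both strands for the GC-rich SMAD site GGCGCC, the SMAD palindrome GTCTAGAC, the AP-1 motif TGANTCA, the CRE TGACGTCA and an NF-kB motif. GGCGCC was in 2 of the 12 windows, of Id2 and Tgfbr1, and in 11.9% of all 32851 windows. GTCTAGAC was in 1, that of Smad6, where it lies from 4 bases before the start onwards, and in 0.213% of all windows. The AP-1, CRE and NF-kB motifs, held by 7.81%, 1.79% and 1.63% of all windows, were not found in these letters. With such shares, 12 windows are too few to set these genes apart from all windows. The following lines give, 5′ to 3′ and with matches in capitals, 250 bases before the start and 10 after it for Id3, whose mRNA rose most, and for 3 genes whose mRNAs fell together, Id2, Smad6 and Tgfbr2. The windows are chr4:136143572-136143831 (plus strand) for Id3, chr12:25096083-25096342 (minus strand) for Id2, chr9:64022050-64022309 (minus strand) for Smad6 and chr9:116175354-116175613 (minus strand) for Tgfbr2.
Id3: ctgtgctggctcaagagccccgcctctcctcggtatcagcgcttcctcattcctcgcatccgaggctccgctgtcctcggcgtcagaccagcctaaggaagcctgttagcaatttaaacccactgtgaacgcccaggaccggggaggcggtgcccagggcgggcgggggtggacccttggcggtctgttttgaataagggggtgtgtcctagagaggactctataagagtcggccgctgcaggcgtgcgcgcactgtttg
Id2: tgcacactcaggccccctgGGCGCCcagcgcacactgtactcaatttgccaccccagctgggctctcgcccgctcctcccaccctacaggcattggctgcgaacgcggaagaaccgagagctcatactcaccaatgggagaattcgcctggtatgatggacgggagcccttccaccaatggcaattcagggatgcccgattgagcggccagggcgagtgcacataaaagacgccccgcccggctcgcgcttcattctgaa
Smad6: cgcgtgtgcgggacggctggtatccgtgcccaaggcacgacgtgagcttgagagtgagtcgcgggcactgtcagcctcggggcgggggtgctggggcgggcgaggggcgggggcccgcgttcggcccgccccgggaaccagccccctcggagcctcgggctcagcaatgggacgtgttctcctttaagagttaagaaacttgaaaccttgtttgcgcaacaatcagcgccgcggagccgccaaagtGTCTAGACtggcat
Tgfbr2: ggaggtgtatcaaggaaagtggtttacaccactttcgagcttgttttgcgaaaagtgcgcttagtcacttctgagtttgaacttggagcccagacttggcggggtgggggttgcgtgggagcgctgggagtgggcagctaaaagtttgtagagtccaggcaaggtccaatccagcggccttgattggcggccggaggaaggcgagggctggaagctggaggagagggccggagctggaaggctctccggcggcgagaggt

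The libraries held between 100250892 and 159077286 counted reads, and 3 reads, the most that a count of 0 allows, correspond to at most 0.0299 cpm (reads per 1000000 counted). Reads of the ribosomal RNA precursor Rn45s took 12.96% to 20.53% of the libraries at 15, 45, 75 and 90 min and 8.18% to 9.11% of the other 4. The LPS response gene Tnf reached 40.3 times and Nfkbia 7.60 times its 0 min level at 120 min. Of 8 macrophage markers in the table, 7 exceeded 1 cpm, among them Csf1r, Lyz2 and Cd68, while none of the 5 T cell, 4 B cell, 4 fibroblast, 4 epithelial and 4 endothelial markers did in any library. Col1a1, Epcam, Cd3g and Pax5 had no read at all.

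Counts were divided by size factors to give normalised counts. A gene was called higher or lower when an exact negative binomial test of 2 libraries gave an unadjusted p-value below 0.05 and the log2 ratio lay beyond 0.5, among 12166 genes with a mean normalised count of at least 10, as all 10 genes had. The test compares 2 libraries and not 2 conditions, and in bulk RNA fewer cells of a type cannot be told apart from less RNA per cell. No gene of the 10 was called at 15 min, where 0.353% of all tested genes were higher and 0.181% lower. At 30 min Id3 and Tgif1 were higher (2 of 10, against 1.37% of all genes) and none was lower (0.271% of all). At 45 min Skil joined them (3 of 10, against 4.75%), and Id1 was lower (1 of 10, against 1.82%).

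At 60 min 4 genes were higher, Id3, Skil, Tgif1 and Smad7 (4.23% of all genes), and Id1 and Id2 were lower (3.02%). Neither lower call at 60 min was kept with Benjamini-Hochberg adjusted p-values or with edgeR's trended dispersion. Id3, Skil, Tgif1 and Smad7 were also higher at 75 min (6.18%), when Id2 and Smad6 were lower (4.04%). At 90 min Id3, Skil and Tgif1 were higher (7.31%), and Id2, Smad6 and Tgfbr2 lower (5.31%). At 120 min 8 of the 10 were called: Id3, Skil, Tgif1 and Tgfb1 were higher (4 of 10, against 9.40%), and Id2, Smad6, Tgfbr1 and Tgfbr2 were lower (4 of 10, against 8.64%). The genes thus moved both ways. Their median log2 ratio at 120 min was 0.42, between the uncalled Id1 (0.19) and Smad7 (0.66), beside -0.01 over all tested genes.

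Maxima and minima along the time course were then sought with the rules of the study, over all 28 pairs of libraries. All 10 genes had at least 1, against 22.9% of tested genes. The 10 were chosen with earlier results of these data known, so this contrast is a description and not a test. Id3, Smad7, Skil and Tgfb1 had a first maximum at or after 60 min (group g1, 9.81% of tested genes). Id2, Smad6, Tgfbr1 and Tgfbr2 had a first minimum at or after 60 min, in each case at 120 min (g2, 9.89%). Id1 had an early minimum and a late maximum (g4, 0.740%), and none had an early maximum with a late minimum (g3, 1.13%). Tgif1 had a maximum at 45 min and no later minimum, a course that falls in none of the groups as the study's methods define them (1.36%). The study's figure legend describes g3 by a significant maximum before 60 min alone, a wording that Tgif1 would meet. The 60 min value of Tgif1 was 0.954 of that at 45 min (0.917 to 0.994). With libraries scaled by total counts its maximum came at 60 min, which puts it in g1. The plot of relative levels shows these courses side by side.

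**Figure D1:**
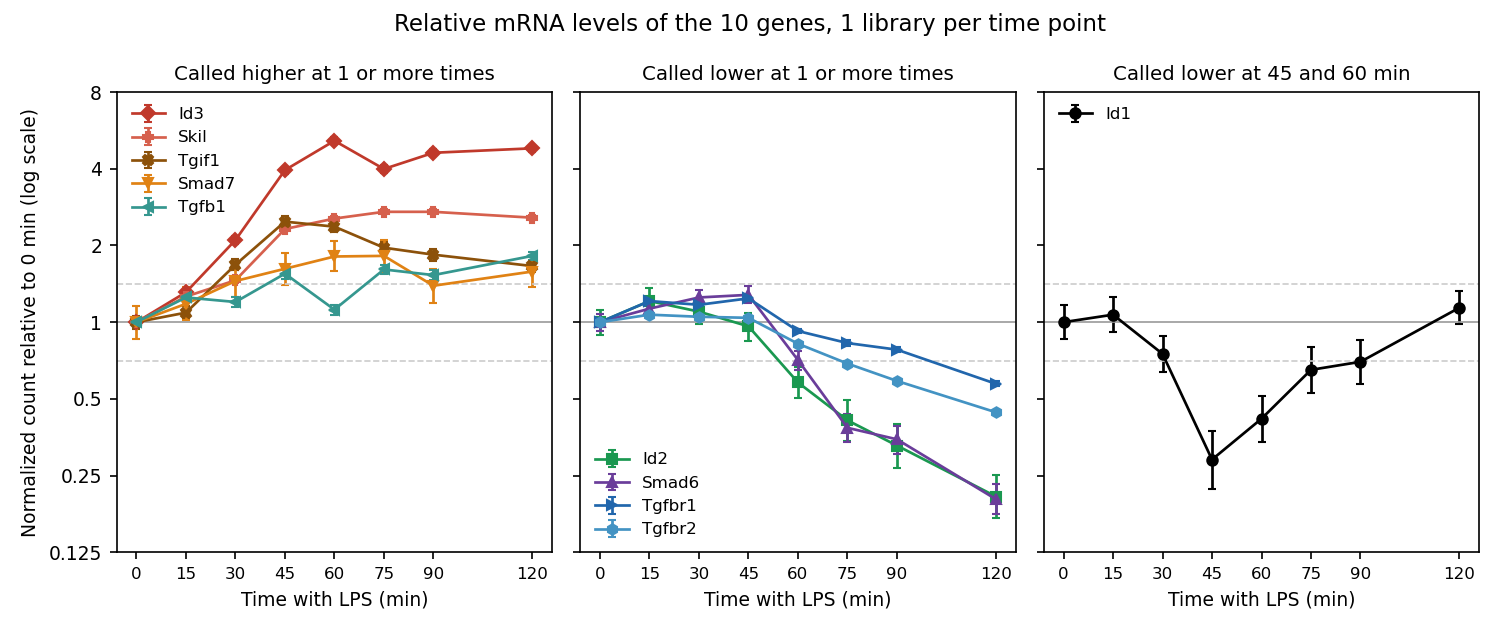
Normalised count relative to 0 min (log scale) against time with LPS (min) for the 10 genes, 1 library per point; bars are 95% intervals for counting error only, and dashed lines mark a log2 ratio of 0.5 either way. Id3 reaches 5.15 at 60 min, Id2 and Smad6 end at 0.207 and 0.202, and Id1 dips to 0.289 at 45 min and stands at 1.14 at 120 min.

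Levels of different genes were compared per length, as reads per kb of unique 58-base sequence, scaled to the total count (rpkm). In unstimulated cells the order was Id3 with 29.9 rpkm, Tgfbr1 with 27.8, Tgfbr2 with 25.1, Tgfb1 with 14.9, Skil with 13.0, Tgif1 with 7.93, Id2 with 3.65, Smad6 with 3.38, Id1 with 2.86 and Smad7 with 0.627. The 95% Poisson intervals of neighbours in this order overlapped only for Id2 (3.36 to 3.96) and Smad6 (3.20 to 3.57). Thus the Id genes spanned a wide range at rest, and the 2 inhibitory SMADs were among the 4 lowest of the 10. At 120 min the order was Id3 (125 rpkm), Skil (29.1), Tgfb1 (23.6), Tgfbr1 (13.9), Tgif1 (11.4), Tgfbr2 (9.67), Id1 (2.83), Smad7 (0.864), Id2 (0.658) and Smad6 (0.595). Skil and Tgfb1 now stood above both receptors, and Id2 and Smad6, whose intervals again overlapped, were last.

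**Figure D2:**
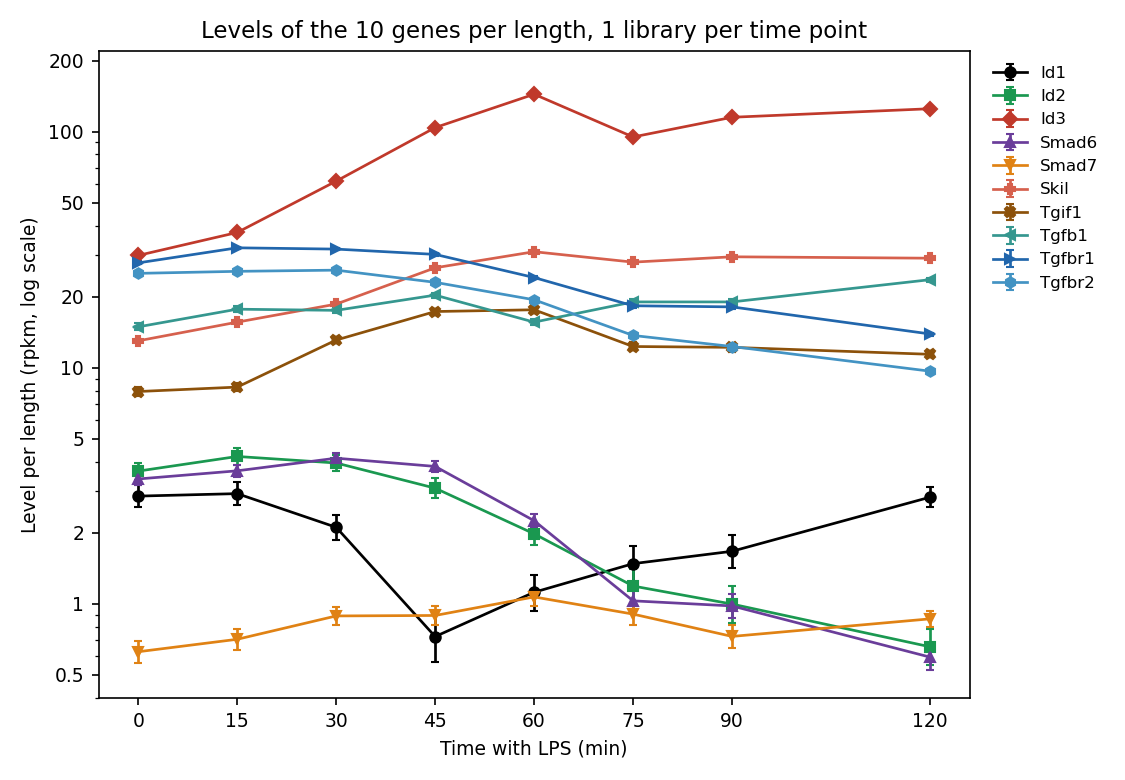
Level per length (rpkm, log scale) against time with LPS (min) for the 10 genes, 1 library per point, with 95% Poisson intervals for counting error only. Id3 lies above the other 9 at every time, at 29.9 rpkm at 0 min and 125 at 120 min, and the lines of Smad6 and Id2 cross that of Smad7 between 90 and 120 min.

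Id3 mRNA (GRCm38.p6, chromosome 4, 136143822 to 136145392) rose most of the 10 genes. Its normalised count was 4098 before stimulation and then, in time order from 15 to 120 min as for each gene that follows, 5359, 8613, 16191, 21086, 16360, 18922 and 19713. All libraries from 30 min on lay above the 0 and 15 min libraries. The level relative to 0 min was 2.10 at 30 min (95% interval 2.03 to 2.18), 3.95 at 45 min (3.82 to 4.08), 5.15 at 60 min (4.99 to 5.31) and 4.81 at 120 min (4.66 to 4.96). These intervals, here and below, cover counting error only. The drop from 60 to 75 min, to 0.776 of the 60 min level (0.759 to 0.793), was larger than counting error but was not called as a minimum.

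Id2 (chromosome 12, 25093799 to 25096092) fell and was called lower from 60 min on. Normalised counts of Id2 were 496.2 before stimulation and then 600.4, 547.8, 477.8, 287.6, 204.2, 162.5 and 102.9. Each library after 15 min was lower than the one before it, and the last 4 lay below all earlier ones. Relative to 0 min the level was 0.963 at 45 min (0.847 to 1.09), 0.580 at 60 min (0.504 to 0.665), 0.328 at 90 min (0.268 to 0.397) and 0.207 at 120 min (0.170 to 0.252). This corresponds to a halving every 20.5 min from 45 to 60 min (15.9 to 28.9), every 24.5 min from 45 to 75 min (19.9 to 31.5) and every 33.9 min from 45 to 120 min (29.9 to 39.0).

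Id1 (chromosome 2, 152736251 to 152737410), often used as a readout of BMP signaling, dipped and came back. For Id1 the normalised count was 281.5 before stimulation and then 301.7, 211.3, 81.3, 117.5, 183.1, 196.8 and 320.1. The lowest value rests on 72 reads. Relative to 0 min the level was 0.289 at 45 min (0.221 to 0.374) and 0.418 at 60 min (0.339 to 0.513), which were both called, and 0.650 at 75 min (0.527 to 0.799) and 0.699 at 90 min (0.574 to 0.849), which were not. From 30 to 45 min the level dropped to 0.385 of its value (0.292 to 0.502), and from 45 to 120 min it rose 3.94-fold (3.06 to 5.13), so that it ended at 1.14 times the 0 min level (0.980 to 1.32). The 45 min library has one of the higher Rn45s shares (16.64%) and the 60 min library one of the lower (8.27%), and Id1 was low in both; the part of the Rn45s share in its course was not tested.

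Within a library, the ratio of 2 genes does not depend on how libraries are scaled. Id3 was 8.20 times as high as Id2 per length at 0 min (7.53 to 8.96), 33.7 times at 45 min (30.6 to 37.2), 72.8 times at 60 min (65.3 to 81.5) and 190 times at 120 min (160 to 228). Over Id1 it was 10.5 times at 0 min (9.35 to 11.7), 143 times at 45 min (113 to 183) and 44.2 times at 120 min (40.0 to 49.0). The ratio of Id3 to Id2 increased at every step, whereas that of Id3 to Id1 was highest at 45 and 60 min. For Id3 to Id2 the intervals at 0 and 15 min overlapped (7.53 to 8.96 and 8.17 to 9.64). So did those at 60 and 75 min (65.3 to 81.5 and 67.6 to 94.4). Id2 stood 1.27 times above Id1 at 0 min (1.11 to 1.46) and 4.25 times at 45 min (3.30 to 5.53), but at 0.232 of Id1 at 120 min (0.189 to 0.285). Of the summed rpkm of the 3 genes, which was 36.4 at 0 min and 129 at 120 min, Id3 made up 82.1% at 0 min and 97.3% at 120 min. The share of Id2 was 10.0% and then 0.5%, and that of Id1 7.9% and then 2.2%.

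**Figure D3:**
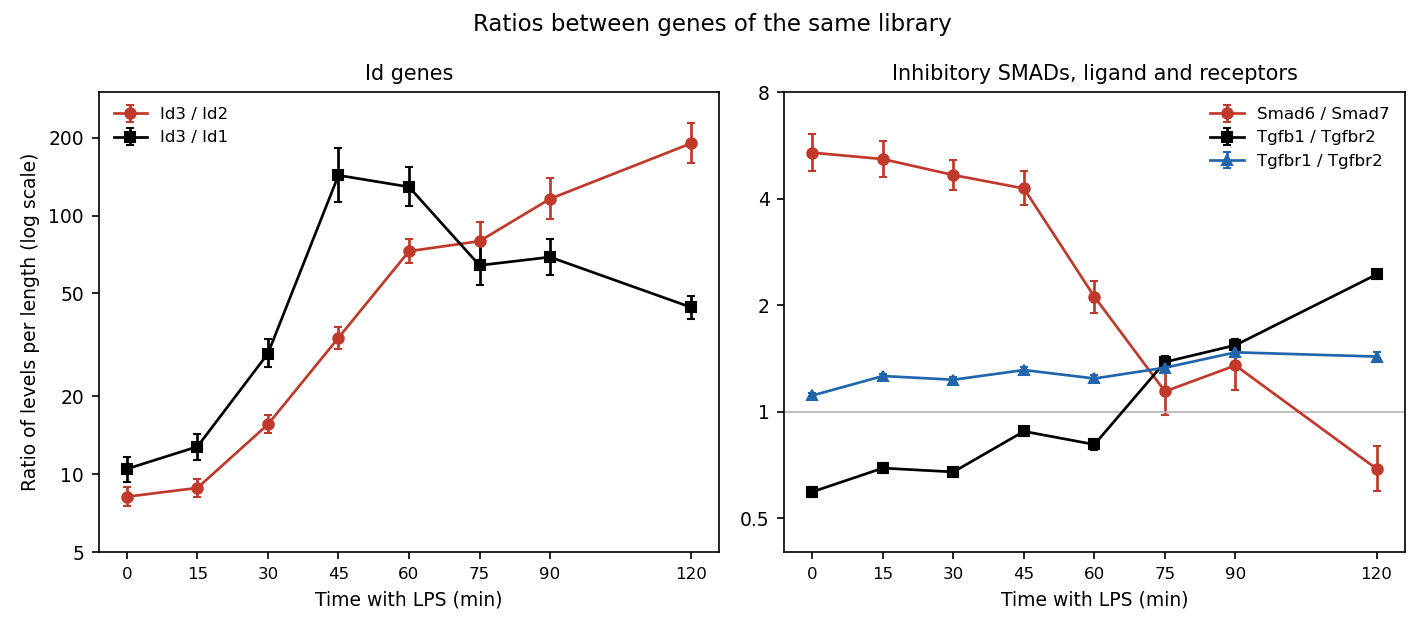
Ratio of levels per length (log scale) between genes of the same library against time with LPS (min), for Id3 over Id2 and Id3 over Id1 (left) and for Smad6 over Smad7, Tgfb1 over Tgfbr2 and Tgfbr1 over Tgfbr2 (right); bars are exact 95% intervals for counting error only. Id3 over Id2 climbs from 8.20 to 190, and Smad6 over Smad7 falls from 5.39 to 0.689.

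The 2 inhibitory SMADs moved apart. Smad6 (chromosome 9, 63953076 to 64022085), whose promoter sequence above holds the SMAD palindrome, had a normalised count of 1105 before stimulation and then, in time order, 1252, 1380, 1420, 784.4, 425.3, 383.4 and 223.7. The first 4 libraries lay within 1105 to 1420, and the last 4 were below all of them. Relative to 0 min the level was 1.28 at 45 min (1.19 to 1.39), a difference that was not called, 0.385 at 75 min (0.338 to 0.436) and 0.202 at 120 min (0.177 to 0.231). From 45 to 75 min Smad6 halved every 17.2 min (15.6 to 19.3), with like values for the steps from 45 to 60 min (17.5) and from 60 to 75 min (17.0). Over 45 to 120 min the figure was 28.1 min (26.2 to 30.3).

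Smad7 (chromosome 18, 75367365 to 75395935) was the lowest of the 10 genes per length at rest, with 0.627 rpkm from 347 reads, and increased modestly. The normalised counts ran from 296.9 before stimulation over 351.1, 429.1, 481.1, 538.7, 539.3, 412.6 and 470.1. All 7 stimulated libraries lay above the unstimulated one. The level was 1.81 times that at 0 min at 60 min (1.59 to 2.08) and 1.82 times at 75 min (1.57 to 2.11), and these 2 differences alone were called, while 1.62 at 45 min (1.40 to 1.87) and 1.58 at 120 min (1.38 to 1.81) were not. With libraries scaled by total counts, with or without Rn45s, neither was called. Nor was either called with Benjamini-Hochberg adjusted p-values, a log2 limit of 1 or edgeR's trended dispersion. Per length, Smad6 was 5.39 times as high as Smad7 at 0 min (4.79 to 6.09), 4.27 times at 45 min (3.83 to 4.78), 2.11 times at 60 min (1.90 to 2.34) and 0.689 times at 120 min (0.595 to 0.797). The ratio was 1.14 at 75 min (0.979 to 1.33), where the 2 genes could not be told apart by counting error, and 1.35 at 90 min (1.15 to 1.58), and the interval lay below 1 at 120 min alone.

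Of the corepressors, Skil (chromosome 3, 31095058 to 31122923) rose and stayed up. Normalised counts of Skil were 9958 before stimulation and then 12537, 14542, 23105, 25384, 27031, 27015 and 25623. The 5 libraries from 45 min on lay within 23105 to 27031 and above the first 3. Relative to 0 min the level was 1.46 at 30 min, which was not called, 2.32 at 45 min (2.27 to 2.37) and 2.57 at 120 min (2.52 to 2.63). The step from 30 to 45 min, by a factor of 1.59 (1.56 to 1.62), was the steepest between neighbouring libraries.

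Tgif1 (chromosome 17, 70844205 to 70853532), which represses SMAD2 and SMAD3 complexes, rose and had its highest value at 45 min. Its normalised count was 1996 before stimulation and then, in time order, 2184, 3353, 4947, 4722, 3915, 3665 and 3304. The values from 45 min on decreased from library to library, yet each remained above that at 0 min. The level relative to 0 min was 1.68 at 30 min (1.60 to 1.77), 2.48 at 45 min (2.36 to 2.61) and 1.66 at 120 min (1.57 to 1.74), and all of these were called. From 45 to 120 min it came down to 0.668 (0.640 to 0.697), a difference that was not called as a minimum. Per length, Skil was 1.64 times as high as Tgif1 at 0 min (1.57 to 1.72), 1.89 times at 15 min (1.81 to 1.97), 1.43 times at 30 min (1.38 to 1.48) and 2.55 times at 120 min (2.47 to 2.64). Only the calls at 45 and 60 min were kept when libraries were scaled by total counts, since the log2 ratios at 30, 75, 90 and 120 min then were 0.72, 0.64, 0.62 and 0.53 and did not pass the test.

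The ligand Tgfb1 (chromosome 7, 25687002 to 25705077) had an uneven course. Normalised counts of Tgfb1 were 3537 before stimulation and then, in time order, 4412, 4242, 5477, 3963, 5685, 5410 and 6449. The 4 libraries with the higher Rn45s shares held 4412 to 5685, and 3 of the other 4, at 0, 30 and 60 min, held 3537 to 4242. The part of the Rn45s share in this course was not tested. The value at 120 min, from a library with a low share, was the highest of the 8 and the only one called, at 1.82 times the 0 min level (1.76 to 1.89). With libraries scaled by total counts its log2 ratio was 0.66 and the call was lost.

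Both receptors fell late and together. Tgfbr2 (chromosome 9, 116087695 to 116175363), the type II receptor that binds the ligand first, had a normalised count of 23043 before stimulation and then, in time order, 24628, 24269, 24060, 18968, 15863, 13552 and 10202. The type I receptor gene Tgfbr1 (chromosome 4, 47353222 to 47414926) had 17781 before stimulation and then, in time order, 21551, 20740, 21966, 16420, 14720, 13870 and 10195. In both genes the last 4 libraries were below the first 4 and decreased from one to the next. The level at 120 min was 0.443 of that at 0 min for Tgfbr2 (0.433 to 0.452) and 0.573 for Tgfbr1 (0.561 to 0.586). Tgfbr2 was called lower at 90 and 120 min and Tgfbr1 at 120 min alone. Between 45 and 120 min they halved every 60.6 min (59.1 to 62.2) and every 67.7 min (65.8 to 69.8), respectively, which is slower than Id2 and Smad6 did over the same libraries.

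The balance between the receptors shifted by less than that between ligand and receptor. Per length, Tgfbr1 was 1.11 times as high as Tgfbr2 at 0 min (1.09 to 1.13), 1.24 times at 60 min (1.22 to 1.27) and 1.43 times at 120 min (1.40 to 1.47). The ligand Tgfb1 stood at 0.593 of Tgfbr2 per length at 0 min (0.574 to 0.613), at 0.807 at 60 min (0.781 to 0.834), at 1.38 times at 75 min (1.34 to 1.44) and at 2.44 times at 120 min (2.37 to 2.51).

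As a description over the 8 libraries, which form 1 time course and share its changes in depth and Rn45s share, Pearson's coefficients of log2 normalised counts were 0.99 for Id2 and Tgfbr2, 0.99 for Smad6 and Tgfbr2, 0.98 for Id2 and Smad6 and 0.98 for the 2 receptors. The ratio of Smad6 to Id2 per length was 0.927 at 0 min (0.840 to 1.02) and 0.905 at 120 min (0.731 to 1.13). Among the genes that increased, the coefficient was 0.98 for Id3 and Skil and 0.88 for Id3 and Tgif1. Spearman's coefficients for these pairs were lower, at 0.76 and 0.57. For the pairs of genes that fell they were, in the order given above, 0.98, 0.90, 0.83 and 0.93. Pearson's coefficient of Id1 was negative with all other 9 genes, from -0.83 with Tgif1 to -0.06 with Tgfb1, whereas Spearman's was 0.07 with Id2 and 0.05 with Tgfb1.

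For the 4 genes with the widest range, the most similar courses were sought among 1561 other genes with a mean normalised count of at least 100 and a highest-to-lowest ratio of at least 2. The closest to Smad6 were Fam69a and Sh3tc1 (Pearson's r = 0.995 for both). Those closest to Id2 were Lfng (0.999), which encodes a glycosyltransferase that modifies Notch, and Bcl7a (0.998). Id3 was most like Cflar (0.994), the gene of the caspase 8 inhibitor c-FLIP, whose highest value was 9.02 times its lowest, and Sowahc (0.993). For Id1 the closest were the zinc finger genes Zfp553 (0.961) and Zfp623 (0.935). All of these coefficients are over 8 libraries of 1 time course and are given without a test.

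The remaining genes of the pathway were taken from 8 lists with 107 genes, of which 106 were in the table and 56 passed the minimum. Of these, 24 had a maximum or minimum (22.9% of all tested genes), 13 in g1 (9.81%), 8 in g2 (9.89%) and 3 in g3 (1.13%). At 120 min 12 of the 56 were called higher (9.40% of all tested genes) and 6 lower (8.64%), the latter near the share over all genes, and their median log2 ratio was 0.07, beside -0.01 over all tested genes. The lists differed in how many of their genes were measurable. Only 3 of 27 further TGF-beta, BMP and activin type ligands and 2 of 11 secreted antagonists passed the minimum. Among the ligands 1 had an extremum, Amh, which is named after its values were seen and rests on 31 reads at 0 min and 71 at 60 min. None of the 5 measurable receptor SMADs and Smad4, which carry the signal to the nucleus, had an extremum, a count too small to set them apart from the 22.9% of all tested genes. Their median log2 ratio was 0.07 at 120 min, and the most distant was Smad3 with 0.665 of its 0 min level (0.631 to 0.701), which was not called.

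Of the other receptors, 4 of 8 had an extremum, beside 22.9% of all tested genes. Eng, an accessory receptor of TGF-beta and BMPs, was lower at 120 min at 0.372 of its 0 min level (0.281 to 0.488), and Acvr1b had its minimum at 75 min with 0.560 (0.511 to 0.613). Acvr2a, an activin type II receptor, was higher at 120 min with 1.87 times (1.78 to 1.98), and Acvr1, a BMP type I receptor, had its maximum at 45 min with 1.91 times (1.75 to 2.08). Genes for latency and activation of TGF-beta had an extremum in 2 of 4 cases, beside the same 22.9%. Furin, the protease that cleaves the TGF-beta precursor, was higher 2.67-fold (2.61 to 2.74) and Itgav, an integrin chain that takes part in releasing the latent ligand, 2.17-fold (2.14 to 2.21) at 120 min. They thus moved in the same direction as Tgfb1 in that library.

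Of 15 other intracellular brakes, 3 had a maximum and 1 a minimum, which is near the 22.9% of all tested genes with an extremum. Nedd4l, a ubiquitin ligase that acts on SMADs, reached 2.45 times at 120 min, with 141 reads at 0 min and 365 at 120 min, Pmepa1, which sequesters receptor SMADs, 1.94 times at 75 min (1.79 to 2.11) and Rnf111 1.65 times at 120 min (1.61 to 1.70). Rnf111 encodes Arkadia, a ubiquitin ligase that removes SKIL and SMAD7 and so acts against the brakes. Tgif2, the paralog of Tgif1, was lower at 120 min, at 0.506 of its 0 min level (0.474 to 0.539), whereas Tgif1 was higher.

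Other known SMAD targets had an extremum in 9 of 10 cases (22.9% of all tested genes), 7 of them a first maximum and 2 a first minimum. Their median log2 ratio at 120 min was 2.41, beside -0.01 over all tested genes. Ets2 reached 10.3 times at 120 min (9.81 to 10.9), Junb 10.3 times at 45 min (10.2 to 10.5) and Jun 35.2 times at 45 min (34.2 to 36.4). At 120 min Junb was still higher (log2 ratio 3.11), whereas Jun stood at a log2 ratio of -0.44 and was not called. Jun and Junb are also known as immediate early genes that many stimuli activate, LPS among them. The 2 with a minimum, named after their values were seen, were Klf10, at 0.204 of its 0 min level at 120 min (0.191 to 0.218), and Atoh8, at 0.341 at 90 min (0.249 to 0.460).

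The last list holds Id4 and genes of helix-loop-helix factors, some of which are bound by Id proteins. Of its 10 genes 9 passed the minimum, and 3 were lower at 120 min (8.64% of all tested genes). A maximum or minimum was seen in 4 of the 9, beside 22.9% of all tested genes, and not in the other 5. Among those 5 were Tcf3, Tcf4 and Tcf12, named after their values were seen, with log2 ratios of -0.29, -0.10 and -0.21 at 120 min. Lyl1, a factor of blood cells that pairs with E proteins, was at 0.0970 of its 0 min level (0.0921 to 0.102), Tfeb, a regulator of lysosome genes, at 0.245 (0.228 to 0.263), and Tal1 had its lowest level at 90 min with 0.422 (0.397 to 0.447). The fall of Lyl1 was deeper than that of Smad6, the lowest of the 10 genes with 0.202. Tfec, also named after its values were seen, had a maximum at 75 min that rests on 71 reads.

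**Figure D4:**
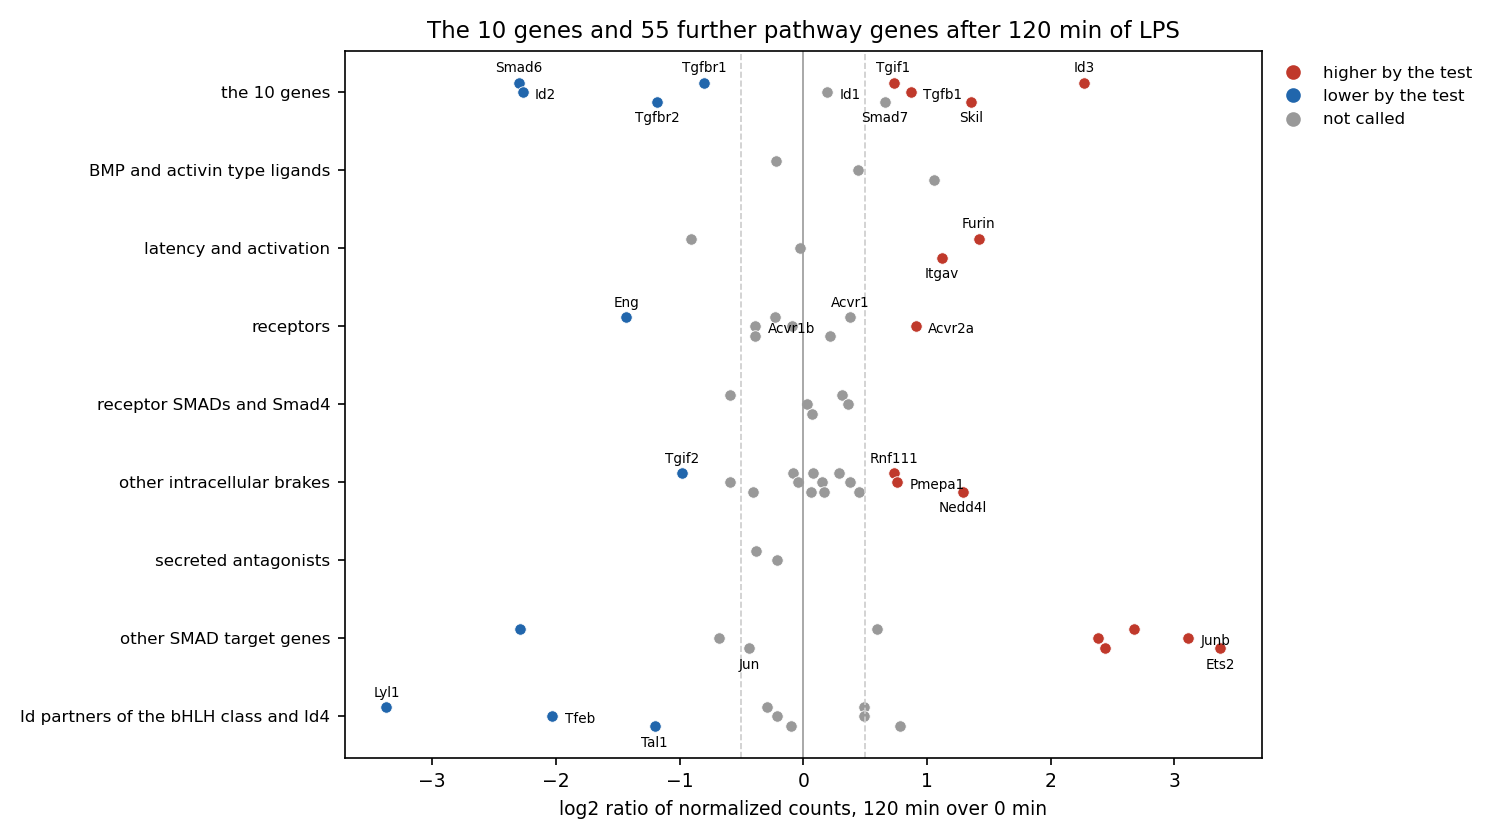
log2 ratio of normalised counts at 120 min over 0 min for the 10 genes (top row) and 55 of the 56 further pathway genes by list, 1 point per gene; red and blue points were called higher or lower by the exact test, grey ones were not, and dashed lines mark a log2 ratio of 0.5 either way. The 10 genes spread from -2.30 (Smad6) to 2.27 (Id3), the receptor SMADs and Smad4 stay grey, and Lyl1 has the lowest value at -3.37.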

How the data were processed

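The authors sequenced RNA from 8 cultures of RAW264.7 macrophages and deposited raw counts per gene symbol. According to the study's methods, rRNA was depleted, 58-base reads were aligned by Bowtie to the RefSeq mRNAs of mm10 allowing up to 2 mismatches, and a read that hit several gene symbols was dropped. The submitters' processing notes name CASAVA 1.8.2 and DESeq 1.10.1, while the version of Bowtie is not given in the sources used here. No column was left unused.

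Size factors were medians of ratios, dispersion was fitted to the mean blind over the 8 libraries, and all 28 pairs of libraries were compared by an exact negative binomial test in Python 3.11.15 (numpy 2.4.6, scipy 1.17.1), after the settings the study gives for DESeq, with a log2 limit of 0.5 and an unadjusted p limit of 0.05. A p-value was the sum of all outcomes no more likely than the one seen. Early means before 60 min. The scripts were tested on simulated data. Intervals of ratios are exact conditional binomial and those of rpkm exact Poisson 95% intervals, both for counting error only, since reads were not collapsed by molecular identifiers. Unique 58-base sequences were counted in GENCODE vM21 transcripts (GRCm38), and gene positions are those of RefSeq for GRCm38.p6. Named genes beyond the 10 are, per list, up to 4 genes with an extremum and a mean normalised count of at least 100, by largest log2 ratio, and the 2 genes most correlated with each of the 4 genes of widest range among the 10. 1 gene of the lists is counted but not reported here. Alternatives used total counts, total counts without Rn45s, edgeR 4.0.16 (TMM factors, or its trended dispersion and exact test), adjusted p-values, other limits and fewer libraries. The genes and lists were chosen with earlier results of these data known.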

Additional observations from a re-analysis of the deposited data

How the results depend on the processing

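No time point has a replicate, so no value here has an error between cultures, and depth limits only the lowest genes. No paired analysis was possible because each group has 1 library. At 30 min, 2 of the 10 genes were called, against 1 with total counts, with total counts without Rn45s, with a log2 limit of 1 or with edgeR's trended dispersion, 0 with Benjamini-Hochberg adjusted p-values and 4 with the log2 limit alone. At 60 min the count of 6 became 3 with adjusted p-values and 3 with edgeR's dispersion, which both dropped Smad7, Id1 and Id2. At 120 min the count of 8 became 5 with adjusted p-values and 5 with a log2 limit of 1. The causes were not tested. The other alternatives kept the counts at these times, and all alternatives those at 15, 45, 75 and 90 min, within 1.5 times. The doubled smaller tail as p-value was chosen after seeing the data. Of 70 log2 ratios, none of the called ones changed sign under any scaling, and total counts, which lowered them by 0.03 to 0.33, ended 7 calls (Smad7 at 60 and 75 min, Tgif1 at 30, 75, 90 and 120 min and Tgfb1 at 120 min) and added 2. All 10 genes kept a maximum or minimum with TMM factors and without any 1 library before 120 min. Without the 120 min library Tgfbr1 lost its minimum, and without the 45 min library the first extremum of Id1 and of Tgif1 came at 60 min. The first extremum of Tgif1 also came at 60 min with total counts. With adjusted p-values or a log2 limit of 1, Smad7, Tgfb1 and Tgfbr1 had none, and with total counts Smad7 and Tgfb1 had none. With the 0, 30, 60 and 120 min libraries alone all 10 had one. With the longest transcript as length, Tgif1 had 10.4 rpkm at 0 min in place of 7.93.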
